A study of Drosophila melanogaster with 4 samples.

Results

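The nuclei described here are those of muscle fibres in the adult male abdominal wall of Drosophila melanogaster, taken as the 569 nuclei that the deposited annotation of the control libraries places in cluster 5. They are drawn from 15280 control nuclei, which the annotation divides into 16 clusters numbered 0 to 15, and from 25141 nuclei in the series. Droplet-based single-nuclei RNA-sequencing (snRNA-seq) was used, which tags every nucleus with a barcode and every captured transcript with a unique molecular identifier (UMI). Each of the 4 libraries was made from 40 pooled male abdomens, with the gut and the reproductive organs taken out, so animals within a library cannot be told apart. The 2 control libraries carried UAS-2xEGFP, and the 2 others carried UAS-Tsc1 and UAS-Tsc2, the subunits of a complex that inhibits TOR signaling. All 4 shared a w1118 background and the transgenes PromE-GAl4 and tub-Gal80ts, each transgene over a wild-type chromosome. PromE-Gal4 is an oenocyte driver, so neither transgene was aimed at muscle, and the temperature-sensitive Gal80 lets Gal4 work at 29 °C and not at 18 °C. The flies were kept at 18 °C before the shift, and the labels give standard food and 4 days at 29 °C for each library, while the study's methods describe a further period on a sugar-rich diet for over-expression flies. Below, the genotypes are called control and *tsc1,tsc2*, and the numbers 1 and 2 only name libraries.

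Muscle fibres are multinucleate cells packed with sarcomeres, in which thick filaments of myosin pull on thin filaments of actin. Calcium released from the sarcoplasmic reticulum binds troponin C on the thin filament and allows contraction, and giant titin-like proteins tie the thick filament to the Z-disc at the end of the sarcomere. In flies, actin and troponin C are each encoded by several genes, and different muscles of the same animal use different members. The study asked whether muscle sends the ligand *Pvf1* to oenocytes, the hepatocyte-like cells of the fly, which lie against the same abdominal wall.

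The cluster held 292 of 7213 nuclei in library 1 (4.05%, exact 95% interval 3.61 to 4.53) and 277 of 8067 in library 2 (3.43%, 3.05 to 3.85). Its nuclei summed to 151851 and 166231 UMIs, with a median of 444 and 514 UMIs and of 219 and 240 genes per nucleus. Cluster 3 had 849 and 818 nuclei at medians of 509 and 482.5 UMIs, and the other clusters 6072 and 6972 nuclei at medians of 360 and 410 UMIs. The 4 whole libraries held 1449112 to 3972281 UMIs. The control libraries shared 74 barcodes and the *tsc1,tsc2* libraries 29, and no barcode belonged to cluster 5 in both control libraries. Levels below are CPM, the UMIs of a gene per 1000000 UMIs summed over the named nuclei of a library, and intervals cover counting error only. Since the clusters were built from these genes in these nuclei, cluster 5 is set beside other nuclei as a description. The labels name separate libraries and do not say whether flies came from separate crosses.

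The 6 genes given as markers of the cluster fit its name: each encodes a muscle protein and was at least 39.1-fold higher than in all other nuclei of the same library. *Scp1* encodes a sarcoplasmic calcium-binding protein (chromosome 2R, 2932595 to 2968052, minus strand, Release 6 of the genome). It stood at 16648 and 12140 CPM in libraries 1 and 2 (14394 ± 3188, SD, n = 2), at 496 and 491 CPM in cluster 3, and at 112 and 47.8 CPM in the remaining clusters. *Act79B*, a muscle actin (3L, 21985210 to 21987190, plus strand), stood at 3095 and 3110 CPM against 106 and 194 CPM in cluster 3. *TpnC41C*, a troponin C (2R, 5065237 to 5070210, minus strand), stood at 4234 and 2509 CPM against 210 and 221 CPM. For these 3 genes neither library of cluster 5 came near the level of cluster 3. The other 3 markers encode giant or kinase-bearing proteins of the sarcomere. The projectin gene *bt* (chromosome 4, 724400 to 776474, plus strand) stood at 8633 and 9884 CPM against 872 and 710 CPM in cluster 3. *Strn-Mlck* (2R, 15946933 to 15989498, minus strand) stood at 2963 and 4012 CPM against 256 and 213 CPM, and it overlaps *CG8366* and *Cyp4aa1* on the opposite strand. The titin-like gene *sls* (3L, 2039681 to 2115611, minus strand) stood at 19091 and 20267 CPM (19679 ± 831, n = 2) against 2312 and 1892 CPM. *TpnC41C* and *Scp1* were the markers whose 2 libraries lay farthest apart in ratio, 1.69-fold and 1.37-fold.

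**Figure D1:**
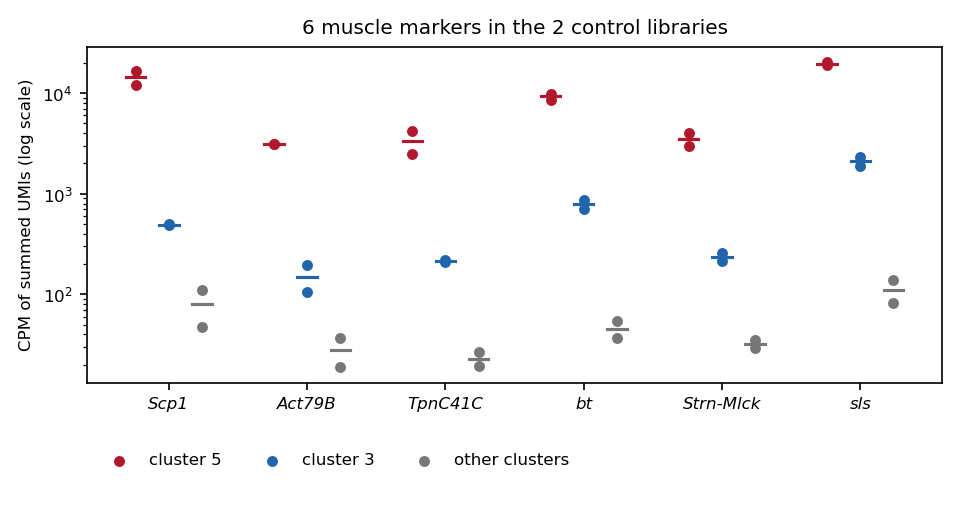
Levels of the 6 marker genes in CPM (logarithmic axis) in cluster 5, cluster 3 and the other clusters of the control libraries; each point is 1 library and each line the mean of both. For every marker both cluster 5 points lie above those of cluster 3, which in turn lie above those of the other clusters, for example sls at 19091 and 20267, 2312 and 1892, and 139 and 81.9 CPM.

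The markers were spread over the nuclei in 2 ways. A UMI of *sls* was found in 75.3% and 80.1% of the nuclei, and one of *Mhc*, the muscle myosin heavy chain, in 77.1% and 83.4%. A UMI of *Scp1* was found in 26.7% and 27.1%, of *Act79B* in 21.2% and 25.6% and of *TpnC41C* in 21.2% and 23.1%. In the clusters other than 3 and 5, which should not use these genes, the shares were 1.91% and 1.42% for *sls* and 1.37% and 0.846% for *Scp1*. With every nucleus thinned to 200 UMIs, the shares in cluster 5 were 70.9% and 74.4% for *sls* and 25.0% and 26.7% for *Scp1*, and the gap between these genes remained. The 30 and 28 nuclei richest in *Scp1* held 84.4% and 78.5% of its UMIs, whereas the same numbers of nuclei richest in *sls* held 37.2% and 35.1% of the *sls* UMIs. *Scp1*, *Act79B* and *TpnC41C* were therefore concentrated in a minority of the nuclei, which are described below.

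Sarcomere genes made up much of the RNA of these nuclei. The 34 listed genes took 12.2% and 15.3% of the summed UMIs, against 4.06% and 3.93% in cluster 3 and 0.258% and 0.239% in the other clusters. Per nucleus the median share was 10.5% and 13.5%, and the lower and upper deciles were 2.18% and 23.5% in library 1 and 3.89% and 25.5% in library 2. Of the 34 genes, 29 reached 100 UMIs in each control library, and 26 of these were at least 4-fold higher than in all other nuclei in both libraries, beside 122 of all 4412 genes that reached that minimum (2.77%). The list holds 5 of the 6 given markers of the cluster, all among the 26, and these were known to be high in advance. None of the 29 was at least 2-fold lower, beside 520 of 4412 genes (11.8%). The median log2 ratio of the 29 genes was 3.71, and that of all 4412 genes was -0.28.

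Of the genes listed for the thick filament, all 9 that could be counted passed the 4-fold mark, among them the given markers *sls*, *bt* and *Strn-Mlck*. The titin-like *sls* is listed here though such proteins also reach the Z-disc. *Mhc* stood at 10879 and 13541 CPM, against 82.5 and 59.7 CPM in the other clusters. The myosin light chains *Mlc2* and *Mlc1* stood at 9602 and 13223 CPM and at 6895 and 7730 CPM. *Prm*, the paramyosin of the filament core, stood at 1910 and 2755 CPM, and *Unc-89*, an obscurin of the M-line, at 632 and 722 CPM. Each of these genes was higher in library 2 than in library 1, by 1.12-fold (*Mlc1*) to 1.44-fold (*Prm*). Among the thin filament regulators, 8 of 9 passed, among them *up*, the troponin T, at 9641 and 13806 CPM and *wupA*, the troponin I, at 6684 and 7923 CPM. The tropomyosin *Tm2* stood at 3556 and 5841 CPM, and *tmod*, which caps the pointed end, at 2120 and 2406 CPM. *TpnC25D*, a further troponin C, fell short with 303 and 920 CPM, 3.20-fold and 11.8-fold above all other nuclei. Of the Z-disc genes, 6 of 8 passed, among them *Mlp60A*, a muscle LIM protein, at 7758 and 12230 CPM and *Zasp66* at 2680 and 3640 CPM. The capping protein subunits *cpa* and *cpb*, which most cells use, stood at 52.7 and 42.1 CPM and at 39.5 and 54.1 CPM, near their levels elsewhere. *Zasp67* and *Mlp84B* had no UMI in any control nucleus. *Mlp84B* overlaps *Alh* on its own strand and *Zasp67* overlaps *CG32052* on the other, and whether reads in the overlaps were left out of the counts was not tested.

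The 3 muscle actins that could be counted passed, with *Act57B* at 4412 and 6756 CPM, *Act87E* at 1732 and 3796 CPM and *Act79B* as given above. *Act88F*, the actin of the indirect flight muscles, was under the minimum of 100 UMIs and stood at 151 and 156 CPM, from 23 and 26 UMIs. The cytoplasmic actins were not raised, with *Act5C* at 217 and 132 CPM against 334 and 389 CPM in the other clusters.

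Cluster 3 also carried sarcomere RNA, and the difference between it and cluster 5 was not even across genes. This RNA was not spread over all of cluster 3. There the median sarcomere share per nucleus was 1.08% and 0.862%, and the upper decile 11.2% and 10.5%. Of the 849 and 818 nuclei of cluster 3, 222 and 231 had no UMI of the listed sarcomere genes. In its clustering at the finer resolution, the study assigned clusters 3 and 5 both to muscle. Whether the numbers there are the deposited ones is not stated. Of the 29 sarcomere genes, 18 were at least 2-fold higher in cluster 5 in both libraries and none at least 2-fold lower, beside 331 (7.5%) and 413 (9.36%) of the 4412 genes. The 5 given markers in the list are among the 18. *Act79B* was 29.2-fold and 16.0-fold higher than in cluster 3, *TpnC41C* 20.2-fold and 11.3-fold, *Strn-Mlck* 11.6-fold and 18.9-fold, and *tmod* 14.5-fold and 11.5-fold. At the other end, *Mlc2* was 1.52-fold and 1.93-fold higher and *TpnC47D* 1.44-fold and 1.82-fold, while the ratios of *TpnC25D* were 0.728 and 1.73 and those of the capping protein genes *cpa* and *cpb* 1.32 and 0.740, and 0.637 and 1.22. The order of the genes was much the same in both libraries (Spearman's rho 0.96 across the 29 genes). The ratio was larger for genes with a longer span on the chromosome (rho 0.63 and 0.66 across the same genes in libraries 1 and 2), genes that share these libraries and are not independent replicates. The 8 listed cuticle markers went the other way, each at least 2-fold lower than in cluster 3, with a summed level of 12433 and 14474 CPM against 71338 and 62192 CPM.

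**Figure D2:**
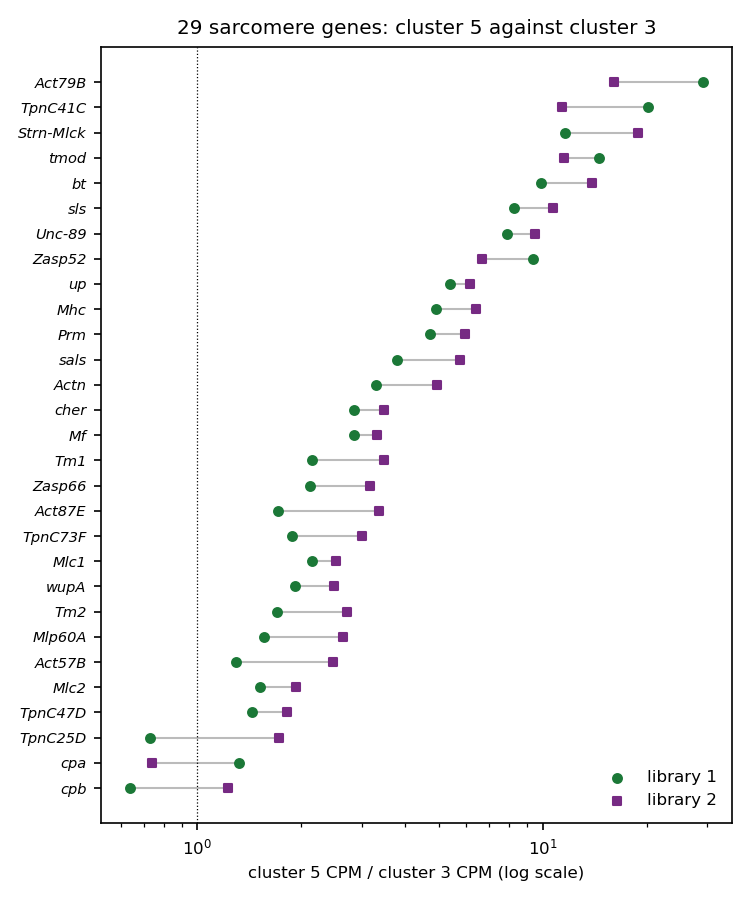
Ratio of the cluster 5 CPM to the cluster 3 CPM (logarithmic axis) for the 29 sarcomere genes that reached the count minimum; circles are control library 1 and squares control library 2. The ratios run from Act79B (29.2 and 16.0) and TpnC41C (20.2 and 11.3) past Mlc2 (1.52 and 1.93) down to TpnC25D (0.728 and 1.73) and the capping protein genes cpa (1.32 and 0.740) and cpb (0.637 and 1.22), for which the libraries fall on either side of 1.

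Genes listed for calcium handling, which include binding proteins beside channels and pumps, were raised with the sarcomere. Of 11 listed genes, 8 were at least 4-fold higher than in all other nuclei in both libraries, beside 2.77% of all genes counted. The median log2 ratio was 4.46, against -0.28 over all genes. Among the 8 is *Scp1*, itself a given marker of the cluster. Besides *Scp1*, these included *Mp20*, a calponin-like muscle protein, at 5242 and 8434 CPM, and *SERCA*, the pump that returns calcium to the sarcoplasmic reticulum, at 3787 and 3345 CPM. The junctophilin *jp*, which holds the reticulum to the cell membrane, stood at 1199 and 944 CPM. *RyR*, the calcium release channel, stood at 408 and 505 CPM against 13.8 and 10.1 CPM in the other clusters. The L-type calcium channel genes *Ca-beta* and *Ca-alpha1D* stood at 586 and 457 CPM and at 336 and 385 CPM. *Ca-beta* was the counted gene of this group with the highest ratio after *Scp1*, 37.1-fold and 40.9-fold. The 3 that did not pass, *Cam*, *Itpr* and *Stim*, encode calcium proteins used by most cells.

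Membrane and synaptic genes were fewer in UMIs. Of the ion channels, 6 of 10 could be counted, and the potassium channels *slo*, *Sh* and *Shab* passed the 4-fold mark. The calcium-gated channel *slo* stood at 1021 and 1065 CPM, and the voltage-gated channels *Sh* and *Shab* at 580 and 457 CPM and at 382 and 547 CPM. *Ork1*, an open rectifier potassium channel, was lower than elsewhere, at 145 and 150 CPM against 695 and 676 CPM in the other clusters. Of the 9 genes listed for the neuromuscular junction, 2 could be counted and neither passed. *GluRIIA*, a subunit of the muscle glutamate receptor, had 9 UMIs in each library (59.3 and 54.1 CPM) against 2.30 and 3.05 CPM in the other clusters, and its partner *Neto* stood at 138 and 144 CPM. *Syt4*, which acts in retrograde signals from muscle, had no UMI in cluster 5.

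Of 25 listed transcription factors known from muscle development, 12 could be counted. Of these, 2 were at least 4-fold higher than in all other nuclei and 3 at least 2-fold lower, beside 2.77% and 11.8% of all genes counted. The median log2 ratio was 0.22, against -0.28 over all genes. The Hox cofactor *hth* stood at 2726 and 2888 CPM against 319 and 272 CPM in the other clusters, and the abdominal Hox gene *abd-A* at 184 and 186 CPM against 16.5 and 19.2 CPM. *Mef2*, the regulator of muscle genes, stood at 415 and 397 CPM, 3.22-fold and 3.08-fold above all other nuclei. The Hox gene *Ubx* went the other way, with 4735 and 5709 CPM against 12864 and 14957 CPM, and *salm* and *ap* were also at least 2-fold lower. The identity factors *tin*, *eve*, *lbe* and *Kr* had no UMI in cluster 5. Of 4 RNA-binding proteins, the splicing factor *mbl* (muscleblind) was higher, at 5446 and 4025 CPM against 395 and 130 CPM, and *bru1* was lower, at 698 and 469 CPM against 1990 and 2534 CPM. The gene *mbl* overlaps *CG43272* on its own strand and *CG12699*, *CG43108* and *CG18469* on the other, and whether the overlaps changed its counts was not tested.

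Of 12 genes of glycolysis and the phosphagen system, 1 was at least 4-fold higher in both libraries (2.77% of all genes). This was *Argk*, the arginine kinase that buffers ATP in insect muscle, at 4702 and 6930 CPM against 119 and 111 CPM. *Gapdh1*, a glycolytic enzyme, did not pass and stood at 975 and 1504 CPM, 4.03-fold and 3.51-fold above all other nuclei, and *Gapdh2* at 593 and 680 CPM. The median log2 ratio of these 12 genes was 0.83. None of the 10 counted genes of the mitochondrial genome was at least 4-fold higher in both libraries, with a median log2 ratio of 1.50. Their transcripts took 3.36% and 2.11% of the UMIs, below cluster 3 (5.35% and 2.82%) and above the other clusters (0.656% and 0.221%). For *mt:CoI*, a subunit of cytochrome oxidase, the levels were 10142 and 6413 CPM in cluster 5 and 14334 and 7261 CPM in cluster 3. These transcripts are made outside the nucleus, and their share differed between the 2 libraries in each of the 3 groups of nuclei.

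Of 12 counted genes that anchor muscle to tendon and nuclei to the fibre, none was at least 4-fold higher, a count that does not set them apart from the 2.77% of all genes. Their median log2 ratio was 0.40, against -0.28 over all genes. The nesprin *Msp300* stood at 5789 and 5456 CPM, 2.30-fold and 1.83-fold above all other nuclei. The integrin subunits *if* and *mys* stood at 257 and 367 CPM and at 224 and 235 CPM. Dystrophin (*Dys*) was lower, at 105 and 90.2 CPM against 251 and 333 CPM in the other clusters.

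RNA of the ligand that the study followed was sparse in these nuclei. The study's evidence for it in muscle was of other kinds. These were antibody staining of leg muscle, RT-qPCR on abdominal cuticles, and knockdown and over-expression in muscle. Counts of nuclear RNA do not measure the protein. *Pvf1* had 4 UMIs in each control library, or 26.3 CPM (exact Poisson interval 7.18 to 67.4) and 24.1 CPM (6.56 to 61.6). It stood at 98.0 and 131 CPM in cluster 3, from 49 and 62 UMIs (72.5 to 129.6 and 100.1 to 167), and at 30.3 and 28.6 CPM in the other clusters, so it was below cluster 3 beyond counting error in both libraries, and a level above that of the other clusters was not detectable at this depth. Its relatives *Pvf2* and *Pvf3* had 3 and 4 UMIs and 13 and 7 UMIs. Their receptor *Pvr*, from 16 and 19 UMIs, stood at 105 CPM (60.2 to 171) and 114 CPM (68.8 to 178). It stood at 158 and 235 CPM in the other clusters, a difference beyond counting error in library 2 and not in library 1, and at 56.0 and 86.4 CPM in cluster 3. Of 18 listed secreted signals, 10 could be counted, none was at least 4-fold higher than in all other nuclei (2.77% of all genes), and *ImpL2*, *Ilp6* and *daw* were at least 2-fold lower (11.8% of all genes). *ImpL2*, an antagonist of insulin-like peptides, stood at 263 and 241 CPM against 895 and 1054 CPM in the other clusters. The TGF-beta family ligand *mav* stood at 237 and 301 CPM against 67.2 and 63.7 CPM, which left library 1 below the 4-fold mark. The EGF-like ligand *vn* stood at 263 and 186 CPM, 19.0-fold and 14.9-fold above all other nuclei, but missed the count minimum over the library. The ligands *upd2* and *upd3* had no UMI. Among the receptors, *Egfr* stood at 599 and 445 CPM against 1999 and 1946 CPM, and the insulin receptor *InR* at 448 and 379 CPM against 1222 and 1525 CPM. The TNF receptor *wgn* stood at 132 CPM in both libraries, 3.89-fold and 4.48-fold above all other nuclei.

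Outside the lists, 12 genes were named for the highest ratio to all other nuclei. Of these, *CanA1*, a catalytic subunit of calcineurin, stood at 981 and 1161 CPM (40.1-fold and 43.6-fold higher), and *side*, a guidance cue that motor axons follow, at 283 and 427 CPM (38.2-fold and 64.2-fold). *GluClalpha*, a glutamate-gated chloride channel, stood at 685 and 957 CPM, and *Stacl*, a relative of the STAC proteins of the calcium release site, at 1008 and 1005 CPM. *Rgk3*, an RGK-type GTPase, stood at 250 and 150 CPM, *nrm*, a cell adhesion protein, at 1396 and 1889 CPM, and *mspo* (M-spondin), an extracellular matrix protein of muscle, at 250 and 445 CPM. The other 5 were *CG42458*, *CG1674*, *CG9297*, *CG32121* and *CG42390*, 24.7-fold to 47.9-fold higher. The neuropeptide receptors *Proc-R* (461 and 511 CPM) and *FMRFaR* (178 and 241 CPM), which were chosen after their values were seen, were 23.0-fold to 82.2-fold higher. At the low end, among genes of at least 500 CPM in all other nuclei, *Ndae1*, a sodium-driven anion exchanger, stood at 0.186 and 0.123 of their level. It was followed by *fus*, *CG8468*, *CG5151*, *klu* and *Hnf4*. *Hnf4*, a nuclear receptor of lipid metabolism in fat body and oenocytes, stood at 501 and 535 CPM against 2530 and 2528 CPM in the other clusters.

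The minority of nuclei rich in *Scp1* differed from the rest of the cluster in which actin and troponin C genes they used. This division was chosen after the values were seen and is given for the control libraries as a description. Nuclei with at least 10 UMIs of *Scp1* numbered 49 and 51, those with none 214 and 202, and 29 and 24 nuclei with 1 to 9 UMIs lay between and were left out. *Scp1*-rich nuclei were somewhat deeper, at medians of 572 and 621 UMIs against 431 and 508. In the *Scp1*-rich nuclei, *Act79B* stood at 12953 and 13648 CPM, and in the *Scp1*-free nuclei at 86.1 and 66.2 CPM. *Act57B* ran opposite, at 620 and 951 CPM in *Scp1*-rich and 5844 and 8703 CPM in *Scp1*-free nuclei. *Act87E* had 0 and 18 UMIs in the former and 257 and 596 UMIs in the latter. *Act88F* had 20 and 15 UMIs in the *Scp1*-rich nuclei and 3 and 0 in the larger *Scp1*-free group. From other work on Drosophila, *Act79B* is known from tubular muscles of the adult thorax and legs, and *Act57B* and *Act87E* from the body wall. The study counts muscles of the abdomen as tubular too, so this does not divide the nuclei into tubular and other fibres.

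The troponin C genes divided the same nuclei. *TpnC41C*, which is also known from tubular adult muscle, stood at 17323 and 10520 CPM in *Scp1*-rich and 210 and 298 CPM in *Scp1*-free nuclei. *TpnC47D* stood at 62.0 and 215 CPM against 2009 and 2045 CPM, and *TpnC73F* at 93.0 and 337 CPM against 670 and 845 CPM. *TpnC25D* had 0 and 5 UMIs in *Scp1*-rich and 39 and 140 UMIs in *Scp1*-free nuclei. For each of these troponin C genes, both libraries of 1 class lay above both libraries of the other. Counted nucleus by nucleus, a UMI of *Act79B* was present in 71.8% and 90.7% of the nuclei with *Scp1* and in 2.80% and 1.49% of those without. For *Act57B* the shares were 17.9% and 17.3% with *Scp1* and 53.3% and 66.8% without.

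Other genes of the fibre followed the division in either direction. *SERCA* stood at 9204 and 7514 CPM in *Scp1*-rich and 2257 and 2145 CPM in *Scp1*-free nuclei, and *Argk* at 10133 and 10857 CPM against 3147 and 5912 CPM. *UQCR-Q*, a subunit of respiratory complex III encoded in the nucleus, stood at 17013 and 15059 CPM against 727 and 1093 CPM. *COX5A* of complex IV stood at 3471 and 2638 CPM against 488 and 795 CPM, and *Hsc70-1*, a heat shock cognate, at 2634 and 1687 CPM against 57.4 and 124 CPM. The share of mitochondrial genome transcripts was likewise higher, 7.35% and 4.62% against 1.93% and 1.20%. The titin-like gene *sls* ran the other way, at 4741 and 4140 CPM in *Scp1*-rich and 25252 and 25868 CPM in *Scp1*-free nuclei, as did *bt* at 3130 and 3404 CPM against 10837 and 12031 CPM. *RyR* stood at 403 and 460 CPM against 411 and 547 CPM. The regulators *hth* (186 and 460 CPM against 3874 and 3693 CPM) and *mbl* (1116 and 797 CPM against 6992 and 5150 CPM) were also lower in *Scp1*-rich nuclei, as was *Mp20* (93.0 and 859 CPM against 7183 and 10814 CPM). Core parts of the filaments lay on either side. *Mlc1* (12364 and 11379 CPM against 5567 and 7162 CPM) and *Prm* (2696 and 3374 CPM against 1798 and 2757 CPM) were higher in *Scp1*-rich nuclei of both libraries. *Mhc* (7406 and 7637 CPM against 12779 and 15857 CPM), *up* (5516 and 9354 CPM against 11536 and 15758 CPM), *Mf* and *Tm2* were lower in both. The libraries differed in direction for *Mlc2*, at 13356 and 12268 CPM against 9039 and 14068 CPM, and for *wupA*, at 9080 and 7392 CPM against 6131 and 8537 CPM. *UQCR-Q*, *COX5A* and *Hsc70-1* were named after their values were seen.

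**Figure D3:**
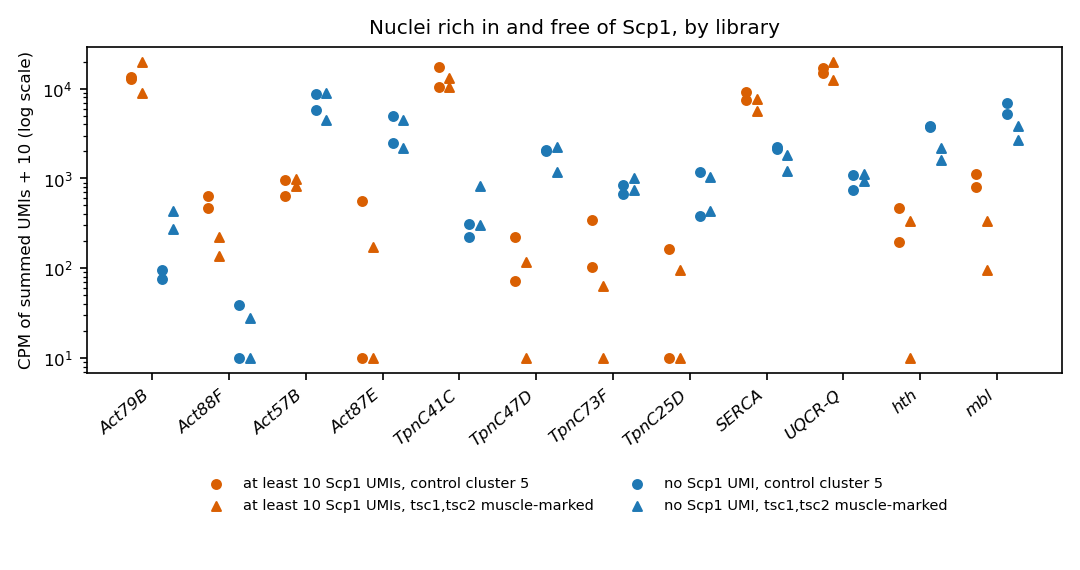
CPM plus 10 (logarithmic axis) of 12 genes in Scp1-rich and Scp1-free nuclei; circles are the cluster 5 nuclei of the 2 control libraries and triangles the muscle-marked nuclei of the 2 *tsc1,tsc2* libraries. Act79B and TpnC41C lie high in Scp1-rich nuclei, for example Act79B at 12953 and 13648 against 86.1 and 66.2 CPM in the controls, while Act57B, Act87E, TpnC47D, hth and mbl lie high in Scp1-free nuclei.

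RNA of neighbouring tissues was present in many of these nuclei. At least 3 UMIs of the 8 cuticle markers were carried by 121 nuclei in library 1 (41.4%, 35.7 to 47.3) and 116 in library 2 (41.9%, 36.0 to 47.9), against 84.3% and 81.8% in cluster 3. At least 3 UMIs of the adipose markers were carried by 28.1% and 20.9% of the cluster 5 nuclei, and of the oenocyte markers by 13.7% and 10.5%. None of the 3 lists reached that number in 88 and 106 nuclei (30.1% and 38.3%). In these, the 6 muscle markers summed to 79849 and 67065 CPM, against 43653 and 44696 CPM in nuclei marked by at least 1 list. The markers did not move alike: *Scp1* stood at 29502 and 24602 CPM in these nuclei and *Act79B* at 5238 and 5066 CPM, above their levels in the whole cluster, and *sls* at 22143 and 18792 CPM. The sarcomere share moved with the adipose and oenocyte lists: its median was 4.47% and 6.64% in adipose-marked nuclei, 5.60% and 8.69% in oenocyte-marked nuclei, 13.2% and 15.6% in cuticle-marked nuclei and 14.4% and 14.9% in nuclei with none. The adipose list summed to 9055 and 7093 CPM over cluster 5, against 33380 and 35545 CPM in the other clusters, and its members *Lsp2* and *CG33700* had no UMI here. The oenocyte list summed to 2753 and 2912 CPM against 10454 and 12572 CPM, with no UMI of *Cyp4g1*, which overlaps *CG32816* on its own strand, in any control nucleus. The source of these UMIs, and their part in the levels given above, was not tested.

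**Figure D4:**
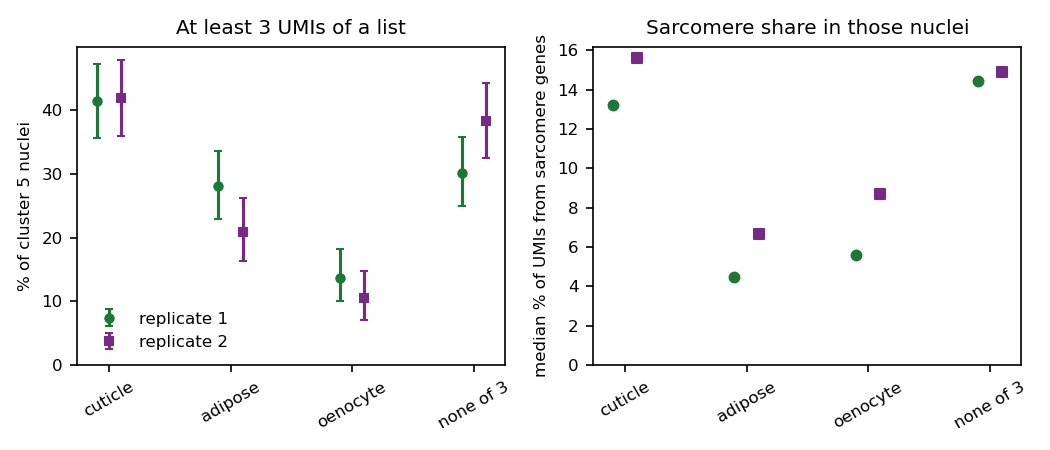
Left, percent of cluster 5 nuclei that carry at least 3 UMIs of the cuticle, adipose or oenocyte markers or of none of these lists, with exact 95% intervals, for both control libraries; right, the median percent of UMIs from sarcomere genes in the same nuclei. Cuticle-marked nuclei are the most frequent (41.4% and 41.9%), and adipose-marked nuclei have the lowest sarcomere medians (4.47% and 6.64%).

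The division by *Scp1* remained in the nuclei with none of these lists, 22 and 30 *Scp1*-rich and 56 and 67 *Scp1*-free. In them *Act79B* stood at 16223 and 15447 CPM against 37.0 and 0 CPM, *Act57B* at 552 and 646 CPM against 7771 and 8780 CPM, and *UQCR-Q* at 21262 and 18325 CPM against 703 and 1911 CPM. Among all *Scp1*-free nuclei 45.8% and 50.0% were cuticle-marked, against 28.6% and 13.7% of the *Scp1*-rich nuclei. The nerve and glia list summed to 263 and 96.3 CPM, above cluster 3 (at most 61.1 CPM) and the other clusters (38.0 and 41.7 CPM). Of this list *elav* had 21 and 13 UMIs, *Syt1* 12 and 3, *nSyb* 5 and 0 and *brp* 1 and 0, *VGlut* had none, and their part in the levels above was not tested. The blood cell list summed to 191 and 144 CPM and the tracheal list to 6.59 and 6.02 CPM. The heart and alary muscle list summed to 217 and 18.0 CPM, with *H15* in 4 and 1 nuclei and *Hand* in 7 and 2. The male tract list stood at 1771 and 283 CPM, and at 3708 and 263 CPM in the other clusters of the same libraries.

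The counts of the 2 control libraries of cluster 5 differed by more than the counting error of independent UMIs (chi-square per degree of freedom 3.22 over 4527 genes). UMIs are clumped by nucleus, so this value does not show a difference beyond the sampling of nuclei. The libraries were kept as separate samples. Of the 12 genes named for the largest difference, 6 each way, 2 are known from the male tract and 2 are heat shock genes. *Sfp60F*, a seminal fluid protein, had 140 UMIs in library 1 and 4 in library 2, and *Obp56g* 39 and 3, and both were also far higher in library 1 outside the cluster (*Sfp60F* at 2138 against 3.05 CPM in the other clusters). *Haspin*, *CG34208*, *nrv3* and *CG30334* had 20 to 28 UMIs in library 1 and 1 or 2 in library 2. In the other direction, the heat shock genes *Hsp68* (2 and 40 UMIs) and *Hsp83* (22 and 166 UMIs) were higher in library 2, by 6.89-fold for *Hsp83* (exact interval 4.40 to 11.3). *Hsp83* also differed outside the cluster, at 1283 and 2778 CPM. *Bacc*, *RpS10b*, *eIF2beta* and *CG8620* were higher in library 2 as well, *Bacc* by 10.0-fold (5.81 to 18.8).

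The *tsc1,tsc2* libraries, which the deposited clusters do not cover, were used to compare nuclei chosen by the marker genes. Since the nuclei were chosen for muscle RNA, a rise of other sarcomere and calcium genes follows in part from the choice. Such counts describe the class and are no independent support for the cluster. In these libraries, nuclei with at least 3 UMIs over the 6 muscle markers and fewer than 3 over the 8 cuticle markers were taken as muscle-marked, 262 and 125 nuclei of 160564 and 83169 UMIs. They were compared with 5931 and 1587 nuclei marked by neither list and with 1086 and 364 cuticle-marked nuclei, and 315 and 191 nuclei that met both rules were left out. Applied to the control libraries, the same rule chose 257 and 231 nuclei, of which 57.2% and 66.7% were in cluster 5, so the muscle-marked class is a mixture, and it holds 50.3% and 55.6% of cluster 5. The 14 marker genes were left out, 6632 genes were tested with edgeR's quasi-likelihood test with Benjamini-Hochberg adjustment, and no test compares the genotypes.

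Against nuclei marked by neither list, 249 genes rose (3.75%) and 41 fell (0.618%) in the muscle-marked nuclei at an adjusted p under 0.05. With the library as a block, since the classes of a library come from the same animals, 451 rose (6.8%) and 322 fell (4.86%). Of 25 sarcomere genes tested, 22 rose and none fell, and the median log2 fold change was 5.17, against -0.05 over all genes. A gene can pass the filter on low counts through 1 class alone: 75 of the 249 genes had under 10 UMIs in at least 1 of the unmarked sums and 25 of the 41 in a muscle-marked sum, so that their fold changes rest on few UMIs in 1 class. *Mhc* stood at 3861 and 10256 CPM against 91.4 and 44.2 CPM, a log2 fold change of 6.86 ± 0.68 (SE, n = 2 libraries, edgeR adjusted p = 0.00147). The troponin T gene *up* rose by 6.72 ± 0.62 (adjusted p = 0.00144), and *RyR*, at 34 and 36 UMIs against 13 and 4, by 6.26 ± 0.61 (adjusted p = 0.00144). Beyond the lists, *l(2)efl*, a small heat shock protein of muscle, rose by 6.66 ± 0.61, *CG45076* by 6.56 ± 0.74 and *CG9297* by 6.50 ± 0.88. The sarcomere genes that did not pass were *Act88F* (5.18 ± 1.59, adjusted p = 0.116, and 0.00216 with the block), *cpa* and *cpb*.

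The calcium genes followed, with 7 of 10 higher, among them *SERCA* by 6.15 ± 0.56 (edgeR adjusted p = 0.00144). Of the 7, *jp*, *RyR* and *Ca-beta* had under 10 UMIs in an unmarked sum. The counts by list in this paragraph and the next stand beside 3.75% of all genes that rose and 0.618% that fell. Of 8 channels, *slo*, *Sh* and *Shab* rose and *Ork1* fell (-3.33 ± 0.60, adjusted p = 0.0150). *GluRIIA* and *Neto* rose, 2 of 6 junction genes tested (4 with the block), and *GluRIIA* did so by 4.04 ± 0.76 (adjusted p = 0.0182). Of 14 transcription factors, *abd-A* rose by 3.01 ± 0.53 (adjusted p = 0.0134), while 3 rose and 3 fell with the block. The change of *hth* was 1.92 ± 0.59 (adjusted p = 0.119, and 0.00192 with the block) and that of *Mef2* was 1.13 ± 0.47 (adjusted p = 0.240). The splicing factor *mbl* rose by 2.83 ± 0.47 (adjusted p = 0.0106) and *bru1* fell (-2.22 ± 0.47, adjusted p = 0.0321). Of 12 metabolic genes, *Argk* and *Gapdh1* rose and *Ldh* fell, and with the block 5 rose. Of 11 mitochondrial genome transcripts 8 rose, *mt:CoI* by 3.93 ± 0.48 (adjusted p = 0.00255). None of 12 attachment genes passed (1 rose and 2 fell with the block). *Msp300* changed by 0.56 ± 0.53 (adjusted p = 0.656).

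Of 14 signals tested, *vn* rose by 3.27 ± 0.62 (adjusted p = 0.0200), and none fell (3 with the block). *Pvf1*, from 4 and 1 UMIs in the muscle-marked nuclei, did not pass (-1.19 ± 0.59, adjusted p = 0.339). Of 9 receptors, *Egfr* fell (-2.28 ± 0.50, adjusted p = 0.0350), and with the block 1 rose and 2 fell. The adipose markers *apolpp*, *CG10960* and *AkhR* fell, 3 of 6 tested, *apolpp* with a log2 fold change of -1.82 ± 0.38 (adjusted p = 0.0274), and 5 fell with the block. None of 7 oenocyte markers passed (3 fell with the block). Of the 4 genes with the largest decrease, *retn* and *jv* had no UMI in the muscle-marked nuclei. They were thus at least 5.66-fold and 4.01-fold lower for *retn*, and at least 2.81-fold and 1.47-fold lower for *jv*, with 3 UMIs per library as the floor. *CG14823* had 2 and 3 UMIs against 1316 and 261, and *SLC5A11* had 1 and 0 against 253 and 45.

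Against cuticle-marked nuclei, in a comparison that uses the same muscle-marked sums, fewer genes passed. Here 97 genes rose (1.46%) and 38 fell (0.573%), and with the block 221 rose (3.33%) and 195 fell (2.94%). Of the 25 sarcomere genes 14 rose (20 with the block), with a median log2 fold change of 2.50 against -0.10 over all genes. Of the thick filament genes 4 of 6 rose (6 with the block), *Mhc* by 3.59 ± 0.58 (adjusted p = 0.0271). *Act87E* rose by 3.04 ± 0.54 (adjusted p = 0.0329), and the change of *Act57B* was 1.95 ± 0.49 (adjusted p = 0.0885, and 0.00772 with the block). *SERCA* rose by 3.70 ± 0.50 and *RyR* by 4.16 ± 0.58, both at an adjusted p of 0.0271, as did *mbl* (3.08 ± 0.48) and *tmod* (3.93 ± 0.63). *Shab*, at 168 and 589 CPM against 15.3 and 15.2 CPM, rose by 4.61 ± 0.86 (adjusted p = 0.0360). Of the other genes with the largest increase, *mspo* rose by 4.57 ± 0.76, *FMRFaR* had 14 and 12 UMIs against 1 and 0, *Rgk3* had 9 and 24 against 2 and 3, and *CG11835* had 9 and 10 against 3 and 1. Like these, 46 of the 97 genes had under 10 UMIs in a cuticle-marked sum, *RyR* with 14 and 3 among them. The 4 genes with the largest decrease were *CG30151*, *Lcp65Ag3*, *CG15515* and *CG4847*, and *Lcp65Ag3* encodes a larval cuticle protein. Since both classes were chosen by their cuticle marker UMIs, a fall of other cuticle genes follows in part from the choice. *CG30151* had 0 and 0 UMIs against 58 and 18, and *Lcp65Ag3* had 1 and 0 against 80 and 67. Of the 38 decreases, 26 had under 10 UMIs in a muscle-marked sum. *CG4847* stood at 237 and 289 CPM against 4132 and 6919 CPM (-4.44 ± 0.54, adjusted p = 0.0271). None of 11 mitochondrial transcripts passed (4 rose with the block). The change of *Pvf1* was -2.16 ± 0.57, past the threshold with the block (adjusted p = 0.0399) and not without it (adjusted p = 0.108), from 4 and 1 UMIs in the muscle-marked nuclei.

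The genes that marked cluster 5 in the controls were largely those that rose in the muscle-marked nuclei of the other genotype. Of 116 genes that were at least 4-fold higher in cluster 5 and could be tested, 101 (87.1%) rose against nuclei marked by neither list, beside 3.75% of all genes tested, and 70 (60.3%) against cuticle-marked nuclei, beside 1.46%, and with the block 115 and 106. All 116 had a positive change in both comparisons, with medians of 4.08 and 2.78 on the log2 scale. Of 510 genes that were at least 2-fold lower in cluster 5, 30 (5.88%) fell against nuclei marked by neither list, beside 0.618% of all genes (169 with the block), and 1 (0.196%) against cuticle-marked nuclei, beside 0.573% (12 with the block). The muscle-marked class was built with 6 genes that are themselves high in cluster 5, so this overlap describes nuclei that carry muscle RNA in other libraries and does not test the boundaries of the cluster.

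**Figure D5:**
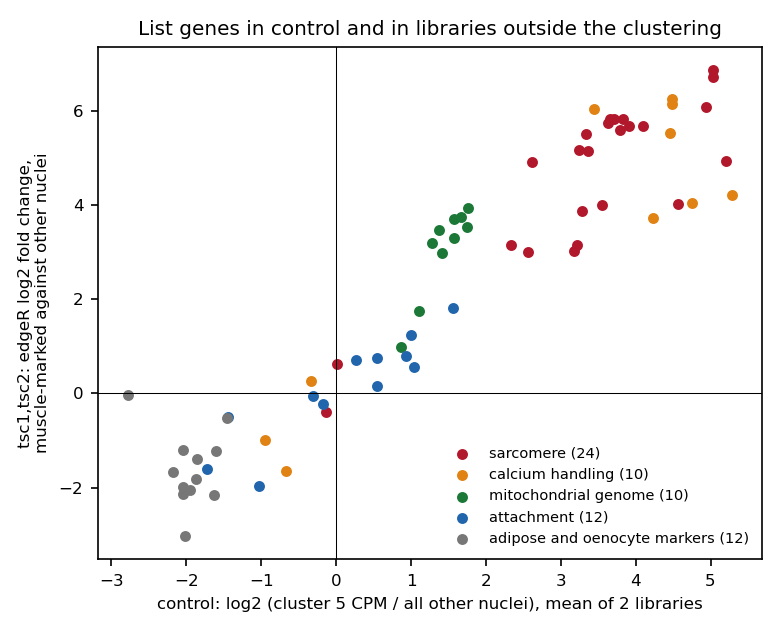
Log2 ratio of cluster 5 to all other nuclei in the control libraries (horizontal axis, mean of 2 libraries) and log2 fold change of muscle-marked against unmarked nuclei in the *tsc1,tsc2* libraries (vertical axis, edgeR), 1 point per listed gene. Sarcomere, calcium and mitochondrial genome genes lie up and to the right, other than *cpa*, *cpb*, *Cam*, *Itpr* and *Stim*, with a sarcomere median of 5.17 on the vertical axis. Attachment genes lie on both sides of 0 (median 0.36), and adipose and oenocyte markers lie below 0.

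The division by *Scp1* was also looked for in the muscle-marked nuclei of the *tsc1,tsc2* libraries. There, 35 and 30 nuclei had at least 10 UMIs of *Scp1*, 162 and 81 had none, and 65 and 14 lay between. *Scp1*-free nuclei entered this class through the other 5 markers, so these were not tested. *Act79B*, which was among them, stood at 9017 and 19633 CPM in *Scp1*-rich and 264 and 429 CPM in *Scp1*-free nuclei. *TpnC41C* stood at 10470 and 13125 CPM against 294 and 805 CPM. Both genes lay in the direction seen in the controls.

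Of 597 genes tested between the 2 classes, none passed without the block (0.0%), where the smallest edgeR adjusted p was 0.0642, while 98 genes had an unadjusted p under 0.05 and DESeq2 called 11. With the library as a block 16 genes rose (2.68%) and 18 fell (3.02%) in *Scp1*-rich nuclei, and all 11 DESeq2 calls were among these 34. *Act57B*, at 812 and 968 CPM against 4448 and 8942 CPM, changed by -2.87 ± 0.66 (adjusted p = 0.159, and 1.3e-05 with the block). *Act87E* had 0 and 3 UMIs in *Scp1*-rich against 215 and 248 in *Scp1*-free nuclei, *TpnC47D* 0 and 2 against 115 and 124, and *TpnC73F* 0 and 1 against 73 and 56, and these 3 genes fell with the block. Here too a gene can pass the filter on low counts through 1 class alone, as these 3 did through *Scp1*-free nuclei. The division was chosen after the control values were seen, so calls between its classes describe it and are no independent support for it. *UQCR-Q* stood at 12479 and 19902 CPM against 1107 and 930 CPM, a change of 4.00 ± 0.58 (adjusted p = 0.0642, and 1.5e-20 with the block).

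Among the other genes that rose with the block were *SERCA*, *Argk*, *COX5A*, *Hsc70-1* and further nuclear genes of respiration: *SdhB* of complex II, *ATPsynC* of the ATP synthase and *mAcon1*, the mitochondrial aconitase. *Mp20*, *hth* and *mbl* fell with the block (edgeR adjusted p = 2.1e-09, 0.00449 and 5.7e-05). In *Scp1*-rich nuclei *hth* rests on 0 and 6 UMIs and *mbl* on 2 and 6. The largest decrease with the block was that of *Obp56d*, an odorant-binding protein gene (edgeR adjusted p = 3.0e-08). It had 0 and 0 UMIs in *Scp1*-rich against 121 and 293 in *Scp1*-free nuclei, and so also passed the filter through *Scp1*-free nuclei alone. *Mhc* and *Mlc2*, which both kinds of nuclei carried, changed by -0.90 ± 0.65 and -0.07 ± 0.46 without the block and passed in neither fit. The male tract genes *EbpII*, *Ebp* and *Sfp60F* were also among the 16, *EbpII* at 15214 and 430 CPM in *Scp1*-rich and 5626 and 107 CPM in *Scp1*-free nuclei. In the other direction, the male tract gene *EbpIII* stood at 1325 and 592 CPM in *Scp1*-rich and 2224 and 5383 CPM in *Scp1*-free nuclei. It passed in neither fit. The part of these male tract genes and of *Obp56d* in the other differences was not tested. The share of mitochondrial genome transcripts was 6.69% and 4.08% in *Scp1*-rich and 3.43% and 3.97% in *Scp1*-free nuclei, a smaller gap in library 2 than in the controls.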

How the data were processed

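The deposited values are UMI counts of 13955 genes in each nucleus, which the authors made with Cell Ranger 3.1.0 on a pre-mRNA reference. Next they used SoupX, set to a fixed contamination fraction, against ambient RNA, removed nuclei of extreme totals, and clustered the control nuclei with Seurat 3.1.2 and Harmony. SoupX lowers small counts, often to 0, and its part in the shares of nuclei without a UMI was not tested. No doublet caller was run. The strand setting of the counting is not stated in the sources used here.

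Counts were summed per library and class and expressed as CPM. Shares have exact Clopper-Pearson intervals at 95% and counts exact Poisson intervals. A control gene was counted with at least 100 UMIs in each library. Thinning drew 200 UMIs per nucleus. In the *tsc1,tsc2* libraries, sums of 3 classes in 2 libraries were tested with edgeR 4.0.16 in R 4.3.3 (TMM, its default filter on low counts, threshold 0.05). The standard error is the log2 fold change over the root of the F statistic. DESeq2 1.42.0 was an alternative, and Python 3.11.15 was used elsewhere. On simulated counts for muscle-marked against unmarked nuclei (6480 genes) edgeR recovered 172 of 200 genes changed by 2 on the log2 scale, with 5 false calls. The simulated sums were independent, with no library effect and the same fixed dispersion for every gene. Changed genes were drawn from those above a minimum expected count in the smallest sum. The real sums share libraries and include genes of few UMIs, so these rates do not carry over to them. Classes of a library come from the same 40 abdomens, and deviations of the libraries from the class means correlated at 0.269 between muscle-marked and unmarked, 0.329 between muscle-marked and cuticle-marked and 0.562 between cuticle-marked and unmarked sums (969 genes), so the library pairs the sums.

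Named genes were the markers, list members with the highest levels or with no UMI, the 12 genes outside the lists with the highest and the 6 with the lowest ratio to all other nuclei (at least 20 UMIs per library for the former), the 6 that differed most between libraries each way, the 6 largest increases and 4 largest decreases past the threshold in each comparison, and *Pvf1*, *Pvr* and *Egfr*. The members, the gene lists and the tests were chosen with earlier results of these data known, and the *Scp1* division was added after seeing the values. Alternatives were DESeq2, library totals, other filters, other marker thresholds, the library block, thinning, levels per nucleus, nuclei without other tissue RNA and each library left out. Coordinates are from the Ensembl annotation of Release 6. The symbols Ald and Gpdh of the glycolysis list and dys of the tracheal list were not found and are not analysed here.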

Additional observations from a re-analysis of the deposited data

How the results depend on the processing

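In the *tsc1,tsc2* comparisons, 77 of the values refitted for 357 genes and comparisons had the other sign, none of them called in either fit. Among these was *Pvf1* against unmarked nuclei, at 0.52 with 2 marker UMIs. With the library as a block, the 249 increases and 41 decreases against unmarked nuclei became 451 and 322, the 97 and 38 against cuticle-marked nuclei became 221 and 195, and none of the 290 and 135 calls was lost. The block took the *Scp1* comparison from 0 to 16 increases and 18 decreases. The 41 decreases were 200 with DESeq2, 223 with at least 10 counts in every sum (969 genes tested), 329 with no filter (11831 genes), 5 at 2 marker UMIs, 87 at 5, and 303 without adipose- or oenocyte-marked nuclei, a setting added after seeing the data. The 97 increases against cuticle-marked nuclei were 196 with DESeq2, 51 at 2 marker UMIs, 183 with no filter and 146 without those nuclei, and the 38 decreases 111 with DESeq2, 20 and 71 at 2 and 5 marker UMIs, 198 with no filter and 69 without those nuclei. The *Scp1* comparison gave 5 increases and 6 decreases with DESeq2, 11 and 3 with at least 10 counts, 3 and 9 with no filter, and none with library totals. Over the alternatives, the adjusted p ran from 1.8e-06 to 0.218 for *Act88F* and 0.00192 to 0.228 for *hth* against unmarked nuclei, from 0.00571 to 0.139 for *Act57B* and 0.0399 to 0.908 for *Pvf1* against cuticle-marked nuclei, and, between the *Scp1* classes, from 1.5e-20 to 0.124 for *UQCR-Q*, 1.3e-05 to 0.172 for *Act57B*, 2.1e-09 to 0.168 for *Mp20*, 0.00449 to 0.275 for *hth* and 5.7e-05 to 0.172 for *mbl*. With no filter it reached 0.874 for *SERCA*, *Argk*, *COX5A*, *SdhB* and *ATPsynC* and 0.673 for *mAcon1*. Among named and listed genes, 13 and 17 calls (against unmarked and cuticle-marked nuclei) were lost at 2 marker UMIs, 2 and 9 with library totals, 4 against cuticle-marked nuclei at 5 marker UMIs, and 2 against unmarked nuclei without adipose- or oenocyte-marked nuclei. The cause of these moves was not tested, beyond the numbers of genes tested.

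With either *tsc1,tsc2* library left out, no residual spread remains, and the called genes that kept their direction in the remaining library numbered 249, 39 to 41, 97 and 38 in the order given above. The exceptions, *CG30151* and *galla-1*, had no UMI in the muscle-marked nuclei, and in library 2 the floor lay above the other nuclei. The summed marker level of 53294 CPM was 51290 as a mean per nucleus, 60657 without nuclei holding *apolpp* or *FASN3*, 73457 in nuclei with under 3 UMIs of each other tissue list (*Scp1* from 14394 to 27052, *Act79B* from 3103 to 5152, *TpnC41C* from 3371 to 5635, *sls* from 19679 to 20467), and 51922 to 54665 with a control library left out. The *sls* share of 77.7% became 72.6% after thinning, and 75.3% to 80.1% by library. The share of marker-chosen control nuclei in cluster 5, 61.9%, was 37.3% at 2 marker UMIs and 77.1% at 5, and 57.2% to 66.7% by library. By library, the ratio to cluster 3 lay on either side of 1 for *TpnC25D*, *cpa* and *cpb*. The size of the cluster was 3.43% to 4.05% by library. The counts of the smaller genes limit the text: *Pvf1* rests on 4 UMIs per control library.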
